A study of Mus musculus with 2 samples.

Results

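The cells described here were C1q macrophages of B16-hAXL tumours that held RNA of Pf4, Ctsk or Atp6v0d2, and 396 of the 7386 barcodes with at least 4000 UMIs met the rule. A UMI is a molecular tag that counts 1 captured RNA molecule. The members were chosen by measured RNA levels alone. The rule kept barcodes with at least 4000 UMIs and at most 10% mitochondrial UMIs in which the 3 C1q subunit genes (C1qa, C1qb and C1qc) made up at least 0.4% of UMIs and in which Ctsk, Atp6v0d2 and Pf4 together had at least 3 UMIs. It left out barcodes in which Arg1 reached 0.1% of UMIs, with more than 2 UMIs of Lyve1, Fcna and Cbr2, with more than 2 UMIs of Negr1, Ptprm and Fcrl5, with more than 3 UMIs of Mki67 and Top2a, with more than 1 UMI of the Cd3 genes, or in which S100a8 and S100a9 reached 1% of UMIs. The working name, Ctsk, Atp6v0d2 and Pf4 lipid-type macrophages, fitted the data in part only: Pf4 supplied 97.7% of the UMIs of the 3 genes in the PBS members and 93.3% in the 6C5 members, and Ctsk was seen in 1 of 95 and 37 of 301 members. They are therefore called Pf4 macrophages below, and all levels of these 3 genes describe the rule and are no finding.

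CD45+ cells, that is cells with the surface protein of the blood cell lineage, were sorted from tumours of WT mice on day 15 and profiled with droplet single-cell RNA-seq. The mice carried B16-hAXL tumour cells, a derivative of the B16 mouse melanoma line, and received by intraperitoneal injection either PBS or 200 µg of 6C5, an antibody against AXL. Each group was 1 library, how many mice a library pooled could not be read from the labels, and the comparison therefore had no replicate check and no test. Total depth was 78923567 UMIs for PBS and 85921419 for 6C5; the 95 PBS members account for 1337642 of these and the 301 6C5 members for 4167659. All intervals below are 95% intervals of counting error only, and cells of 1 library are not replicates of a treatment.

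Pf4 encodes platelet factor 4 (CXCL4), a chemokine stored in platelet granules that some tissue macrophages also transcribe. Ctsk encodes cathepsin K, the collagen-cleaving protease by which osteoclasts resorb bone, and Atp6v0d2 encodes the d2 subunit of the proton pump that acidifies lysosomes, which is abundant in osteoclasts and in some macrophages. Lipid-type macrophages are macrophages that take up and store lipid: Trem2 is a receptor for lipids and apoptotic cells, Lpl releases fatty acids from lipoproteins, Apoe carries lipid out of the cell, and cathepsin L (Ctsl) digests protein in the lysosome. AXL, MERTK and their ligand GAS6 belong to the TAM system, through which macrophages recognise and engulf dying cells.

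In the GENCODE annotation, Pf4 lies on chromosome 5 (90772435 to 90773383, plus strand, mm10), Ctsk on chromosome 3 (95499256 to 95509362, plus strand) and Atp6v0d2 on chromosome 4 (19876841 to 19922605, minus strand). The 250 bases before the RefSeq start of the 2 genes at the extremes of detection, Pf4 and Ctsk, were read from RefSeq promoters (GRCm38.p6) to show the sequences in front of the most and the least often detected gene of the rule. They lie at chr5:90772185-90772434 and chr3:95498960-95499209, both on the plus strand. RefSeq starts Pf4 at the same base and Ctsk at 95499210, upstream of the GENCODE start, and distances below are from the RefSeq starts. Capitals mark GAGGAAG on either strand (CTTCCTC on the other), a core recognised by ETS factors such as PU.1, the lineage factor of macrophages; the motif was chosen after the sequences had been seen.
Pf4: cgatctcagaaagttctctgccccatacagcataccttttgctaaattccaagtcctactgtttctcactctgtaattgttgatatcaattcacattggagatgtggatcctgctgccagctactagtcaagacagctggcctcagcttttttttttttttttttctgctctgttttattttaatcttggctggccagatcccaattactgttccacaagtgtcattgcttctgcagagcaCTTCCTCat
Ctsk: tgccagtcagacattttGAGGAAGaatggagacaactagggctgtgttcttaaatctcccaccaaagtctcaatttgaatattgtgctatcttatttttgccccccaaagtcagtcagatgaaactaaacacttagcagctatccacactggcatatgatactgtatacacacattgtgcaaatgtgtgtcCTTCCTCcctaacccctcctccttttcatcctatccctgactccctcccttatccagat
Pf4 held 1 match, whose first base was 9 bases before the start, and Ctsk held 2, at 59 and 233 bases. The letters occurred on either strand in 10.6% of 32851 promoter windows of the same length, so a match is not rare. Neither strand of either sequence held CACGTG, the core bound by MITF and TFEB, which 6.02% of windows held. The erythroid and megakaryocyte core AGATAAG, held by 2.74% of windows, was not found in them.

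Before any comparison, the place of the Pf4 signal among the macrophages has to be seen, because the gates removed different cells from the 2 libraries. Of the C1q macrophages that failed the Lyve1, Fcna and Cbr2 gate alone, 218 of 238 in PBS and 164 of 179 in 6C5 also had at least 3 UMIs of the 3 genes, which was 91.6% in both libraries. Of those that failed the Negr1, Ptprm and Fcrl5 gate alone, 189 of 398 in PBS (47.5%) and 14 of 77 in 6C5 (18.2%) had them. Of those that failed the Arg1 gate alone, 5 of 7 and 86 of 117 had them. Most PBS macrophages with Pf4 thus lay outside the rule, in resident-type (Lyve1) and Negr1 cells, while in 6C5 more lay inside it than in those 3 sets. The Pf4 macrophages are a remainder after these gates and not a separate group of cells on the Pf4 scale.

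Pf4 was detected in 93 of 95 PBS members and 299 of 301 6C5 members. After thinning every cell to 4000 UMIs, Pf4 was found in 89.5% of PBS members and 92.7% of 6C5 members (97.9% and 99.3% before thinning), against 11.7% and 11.6% of T cells, which should lack it. The median depth was 13698 and 12494 UMIs in members and 9404 and 11533 in T cells. Summed over members, Pf4 reached 968 CPM (UMIs scaled to 1000000 per set) in PBS and 1423 CPM in 6C5, and single members ranged from 0 over a median of 651 to 16123 CPM in PBS and from 0 over 1039 to 16359 in 6C5. The Lyve1 set held more of it (1697 and 2080 CPM), and so did the Arg1-high set (9517 CPM in only 7 PBS cells, and 2465 CPM in 6C5). C1q macrophages that passed every other gate with 0 to 2 UMIs of the 3 genes, called other C1q macrophages below, held 48.2 and 31.8 CPM.

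The number of Pf4, Ctsk and Atp6v0d2 UMIs per cell had no gap at the threshold. In PBS 18 C1q macrophages had 2 UMIs of these genes and 15 had 3; in 6C5 33 had 2 and 30 had 3. Members with exactly 3 UMIs had a Cd74 level of 11180 CPM in PBS and 12310 CPM in 6C5, and cells with 2 had 7423 and 12942 CPM. Ctsl stood at 328 and 643 CPM just inside the threshold and at 184 and 572 CPM just outside it. Members near the threshold were 42.1% of the PBS set (40 cells with 3 to 5 UMIs) and 20.9% of the 6C5 set (63 cells).

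**Figure D1:**
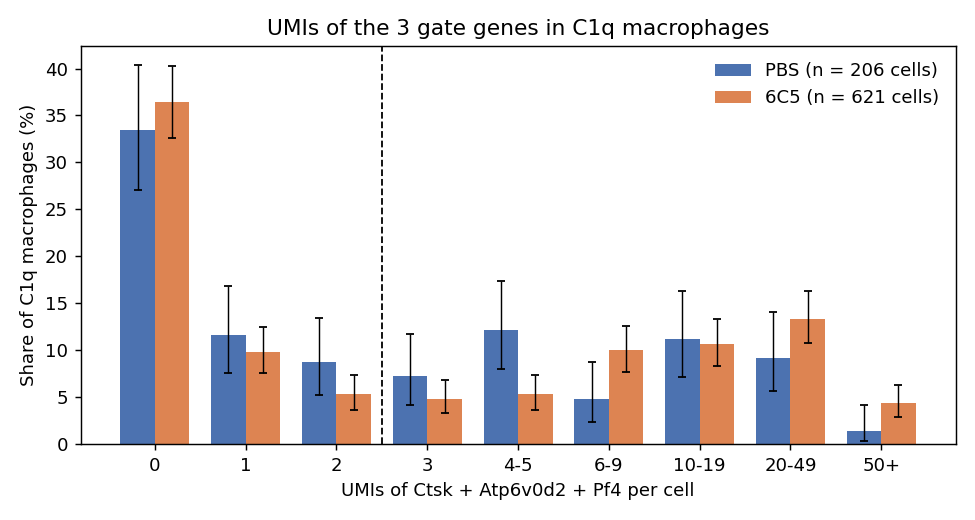
Share of C1q macrophages (%, y axis) by the number of UMIs of Ctsk, Atp6v0d2 and Pf4 per cell (x axis) in PBS (206 cells) and 6C5 (621 cells). Bars are shares with exact 95% binomial intervals, and the dashed line marks the threshold of 3 UMIs. The bars run on across the threshold without a gap, and the 95 PBS and 301 6C5 cells to its right are the members.

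Ctsk and Atp6v0d2 were rare among the members, more so in PBS. Ctsk had 1 UMI in the PBS members and 172 UMIs in the 6C5 members, 43.0% of them from 1 cell, or 0.748 and 41.3 CPM. The ratio of 55.2 (9.78 to 2193) rests on that single PBS UMI, and without the highest cell the 6C5 level was 23.7 CPM. Atp6v0d2 had 30 UMIs in 9 PBS members and 256 UMIs in 57 6C5 members, 22.4 and 61.4 CPM, a ratio of 2.74 (1.87 to 4.14). Both genes were found together in 0 of 95 PBS members, for which the exact upper bound is 3.81%, and in 14 of 301 6C5 members. In 6C5 neither gene was particular to these cells by level: the Arg1-high set held 50.5 CPM of Ctsk and 65.8 CPM of Atp6v0d2. At this depth Ctsk was found in 1.05% of thinned PBS members and 6.64% of thinned 6C5 members, against 0% and 1.09% of T cells.

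The cells carried a macrophage profile. All 8 pan-macrophage genes, among them Csf1r, Adgre1, Fcgr1, Mertk, Cd68 and Cd14, were present, with a summed level of 7139 CPM in PBS and 10627 CPM in 6C5. Platelet genes summed to 24.7 CPM in PBS members and 12.2 CPM in 6C5 members, above the 5.92 and 4.78 CPM of other C1q macrophages, with free RNA at 9.84 and 18.9 CPM, and their part in the results was not tested. Ppbp supplied most of the members' platelet UMIs (18.7 and 10.6 CPM), and 8 of 11 were at 0 in each library, the defining genes Gp9, Gp1bb and Tubb1 in both. Of 19 osteoclast-associated genes, which other macrophages share in part, 9 had enough UMIs to be measured, Acp5, Jdp2, Tnfrsf11a and Mitf at the highest levels. That list left out Ctsk and Atp6v0d2. Several genes more restricted to osteoclasts were at or near 0: in PBS Ocstamp, Calcr, Mmp9 and Oscar were at 0 and Dcstamp had 1 UMI, and in 6C5 Calcr was at 0, Oscar had 1 UMI, Ocstamp and Mmp9 had 4 each and Dcstamp 31. All 8 monocyte genes, among them Ly6c2, Ccr2, Vcan and Plac8, were detected and moved with both the gate and the treatment: they summed to 448 CPM in PBS members and 898 in 6C5 members, and to 1805 and 2312 CPM in other C1q macrophages. At least 3 monocyte UMIs were found in 35 of the PBS members and 216 of the 6C5 members. The B-cell gene Cd79b stood at 109 CPM in PBS members and 12.2 CPM in 6C5 members, while Cd79a, Ms4a1 and Pax5 were at 0 in PBS. The part of monocyte RNA and of Cd79b in the results below was not tested.

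Pf4 macrophages made up 46.1% (39.2 to 53.2) of PBS C1q macrophages that passed every other gate and 48.5% (44.5 to 52.5) of the 6C5 ones, giving a ratio of 1.05 (0.888 to 1.24). Against all barcodes with C1q of at least 0.4%, their share was 6.93% (PBS) and 25.5% (6C5), which is 3.68-fold (2.96 to 4.57). Against all barcodes of sufficient depth and at most 10% mitochondrial UMIs they were 2.72% and 7.79%, a ratio of 2.87 (2.29 to 3.59). The step between the first ratio and the other 2 lies in the gates: the Negr1, Ptprm and Fcrl5 gate took the PBS cells from 831 to 241 and the 6C5 cells from 781 to 697. When the Lyve1 gate was dropped, an alternative added later, the first ratio turned below 1, to 0.825 (313 PBS and 465 6C5 cells), and with Ctsk and Atp6v0d2 alone required to reach 3 UMIs it was 3.07 (4 and 37 cells). No member barcode occurred in both sets of members, and 2 PBS and 1 6C5 member barcodes had at least 4000 UMIs in the other library too.

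Against other C1q macrophages of the same library, Pf4 macrophages held more RNA of resident-type genes and less of antigen presentation and interferon-stimulated genes. Of 8730 genes with at least 50 UMIs, 51 (0.584%) were at least 2-fold higher and 37 (0.424%) at least 2-fold lower in both libraries. The Pf4 macrophages were the deeper cells (other C1q macrophages had medians of 9824 and 10327 UMIs), and the threshold is a count that favours deep cells. The median log2 ratio of all genes was 0.07 in PBS and 0.06 in 6C5.

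Among resident and scavenger genes, 5 of 13 measured were at least 2-fold higher in both libraries, and the list's median log2 ratio was 0.68 in PBS and 0.65 in 6C5. Folr2, a folate receptor of tissue-resident macrophages, stood at 81.5 CPM in PBS members against 25.4 CPM in other C1q macrophages, 3.21-fold (2.13 to 4.98). In 6C5 it stood at 364 against 116 CPM, 3.14-fold (2.82 to 3.52), so the difference was alike in both libraries. Mrc1, the mannose receptor CD206, was 2.05-fold (1.79 to 2.35) and 2.36-fold (2.08 to 2.68) higher. Stab1, a scavenger receptor, was 4.23-fold and 2.17-fold higher. Igf1, a growth factor, was 3.26-fold (2.19 to 4.98) and 5.39-fold (4.38 to 6.69) higher. The Lyve1 set held more than the members of Folr2 (517 and 523 CPM), Mrc1 (1087 and 384 CPM) and Igf1 (235 and 193 CPM). These genes were therefore not particular to the members.

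Other genes that stood out in both libraries were Gas6, the TAM ligand, at 3.67-fold (1.98 to 7.33) in PBS and 4.94-fold (2.78 to 9.43) in 6C5, Fcrls, an Fc receptor-like gene of resident macrophages, at 3.76-fold and 4.97-fold, and Ccl8, a chemokine, at 3.0-fold (2.45 to 3.70) and 2.18-fold (2.09 to 2.28). Serpinb6a, a protease inhibitor, was 3.30-fold and 4.91-fold higher, Igfbp4, which binds IGF proteins, 3.92-fold and 3.32-fold, Lhfpl2 3.83-fold and 5.12-fold, and the elastase Mmp12 2.39-fold and 3.16-fold. Retnla was also high in members, but 1 cell held 92.1% of its UMIs in PBS and 84.4% in 6C5. Several were higher still in the PBS Lyve1 set: Gas6 reached 394 CPM there against 40.4 CPM in PBS members, Serpinb6a 474 against 156 CPM, and Fcrls 203 against 73.3 CPM.

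Against other C1q macrophages, the lipid-type markers Trem2, Lpl and Ctsl, and also Apoe, differed more in 6C5 than in PBS. The marker Ccl8, given above, differed less in 6C5 than in PBS. None of these genes was particular to the members. The Lyve1 set held more Trem2 (556 and 831 CPM) and Apoe (4168 and 7492 CPM) than members in both libraries. It held less Lpl (394 and 790 CPM), and more Ctsl in PBS only (630 and 1388 CPM). The Arg1-high set held more Ctsl (3548 CPM in only 7 PBS cells, and 3961 CPM in 6C5) and less Trem2, Lpl and Apoe. Cells that failed the Negr1, Ptprm and Fcrl5 gate alone held more Lpl than members in PBS and less in 6C5 (1005 and 725 CPM). Their Trem2, Ctsl and Apoe levels were below those of members in both libraries. Trem2 was 1.41-fold higher than in other C1q macrophages in PBS (349 against 248 CPM) and 2.80-fold in 6C5 (682 against 244 CPM). Lpl was 1.05-fold (0.961 to 1.15) in PBS, within counting error of no difference, and 1.42-fold (1.36 to 1.5) in 6C5. Ctsl was 1.78-fold (1.56 to 2.03) and 3.85-fold (3.67 to 4.04) higher, and Apoe 1.26-fold (1.20 to 1.32) and 1.92-fold (1.88 to 1.97). Over the list of 28 measured lipid handling genes the median log2 ratio was 0.14 in PBS and 0.41 in 6C5, and 1 gene, the cholesterol exporter Abca1, was at least 2-fold higher in both. Lysosomal proteases and hydrolases had medians of 0.10 and 0.25, against 0.07 and 0.06 for all genes, with 0 of 30 at least 2-fold higher in both libraries.

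**Figure D2:**
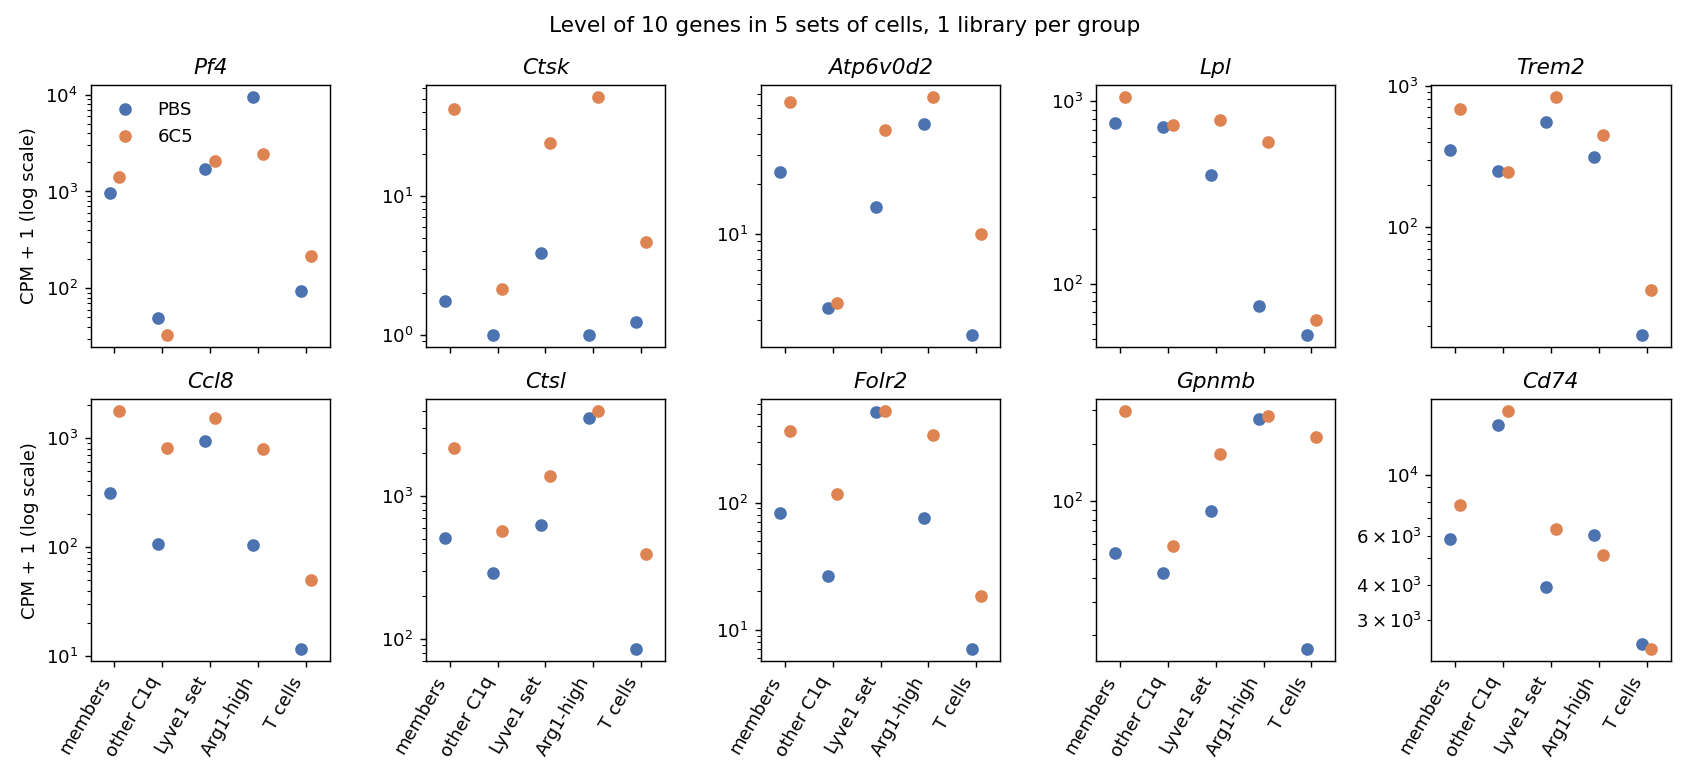
Level of 10 genes (CPM + 1, log scale, y axis) in 5 sets of cells (x axis), 1 point per library, PBS and 6C5. Members are the Pf4 macrophages, the Lyve1 set and the Arg1-high set failed only the gate of that name, and T cells had at least 3 Cd3 UMIs. Pf4 in members (968 and 1423 CPM) lies below its level in the Lyve1 set (1697 and 2080 CPM), and Cd74 in members (5867 and 7746 CPM) lies below that in other C1q macrophages (15052 and 16916 CPM).

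Antigen presentation genes of MHC class II were lower than in other C1q macrophages. Cd74, the invariant chain, stood at 5867 CPM in PBS members against 15052 CPM in other C1q macrophages, 0.390 of that level (0.380 to 0.40), and at 7746 against 16916 CPM in 6C5, 0.458 (0.452 to 0.464). The Lyve1 set held less Cd74 than the members (3960 and 6367 CPM). Cells that failed the Negr1, Ptprm and Fcrl5 gate alone held 4304 and 12306 CPM, and the Arg1-high set 6087 and 5137 CPM. H2-Aa stood at 0.348 and 0.428, H2-Ab1 at 0.356 and 0.391, and H2-Eb1 at 0.353 and 0.381 of the level in other C1q macrophages. These were the 4 of 10 measured class II genes at least 2-fold lower in both libraries, and the list's median log2 ratio was -1.18 and -1.03. Of 22 type I interferon-stimulated genes, 1 was at least 2-fold lower in both libraries, with list medians of -0.47 and -0.44 against 0.07 and 0.06 for all genes. That gene was Isg20, an exonuclease, at 17.2 against 60.9 CPM in PBS and 54.2 against 113 CPM in 6C5. The 17 interferon-gamma response genes had medians of -0.31 and -0.38. The complement gene C3 was 0.181 and 0.421 of the level in other C1q macrophages. Monocyte genes, given above, were lower in members by the same comparison.

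Levels were also read along the number of UMIs of the 3 genes. That number is the count the rule used, so the values describe the gate and are no further support. Depth differed along it: cells with 20 to 49 such UMIs had medians of 19395 (PBS) and 15038 UMIs (6C5). Cells with 0 had 10193 and 10240.5, and the part of depth was not tested. In PBS, Cd74 was higher just inside the threshold than just outside it, as given above. Cd74 went from 17194 CPM in PBS cells with 0 such UMIs over 7054 CPM with 3 to 9 to 3679 CPM with 30 or more. In 6C5 it went from 18354 over 10509 to 3216 CPM. H2-Aa went from 5557 to 803 CPM in PBS and from 5638 to 982 CPM in 6C5. The other direction was taken by Ctsl, from 543 to 4173 CPM in 6C5 and from 269 to 813 CPM in PBS, and by Trem2 in 6C5, through 208, 329, 505, 717 and 881 CPM. Igf1 went up along the scale in 6C5 from 28.8 to 279 CPM, while in PBS it stood between 84.0 and 90.3 CPM in each of the 3 upper classes. The highest PBS class held only 9 cells and the class below it 36, so the upper PBS end rests on few cells.

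**Figure D3:**
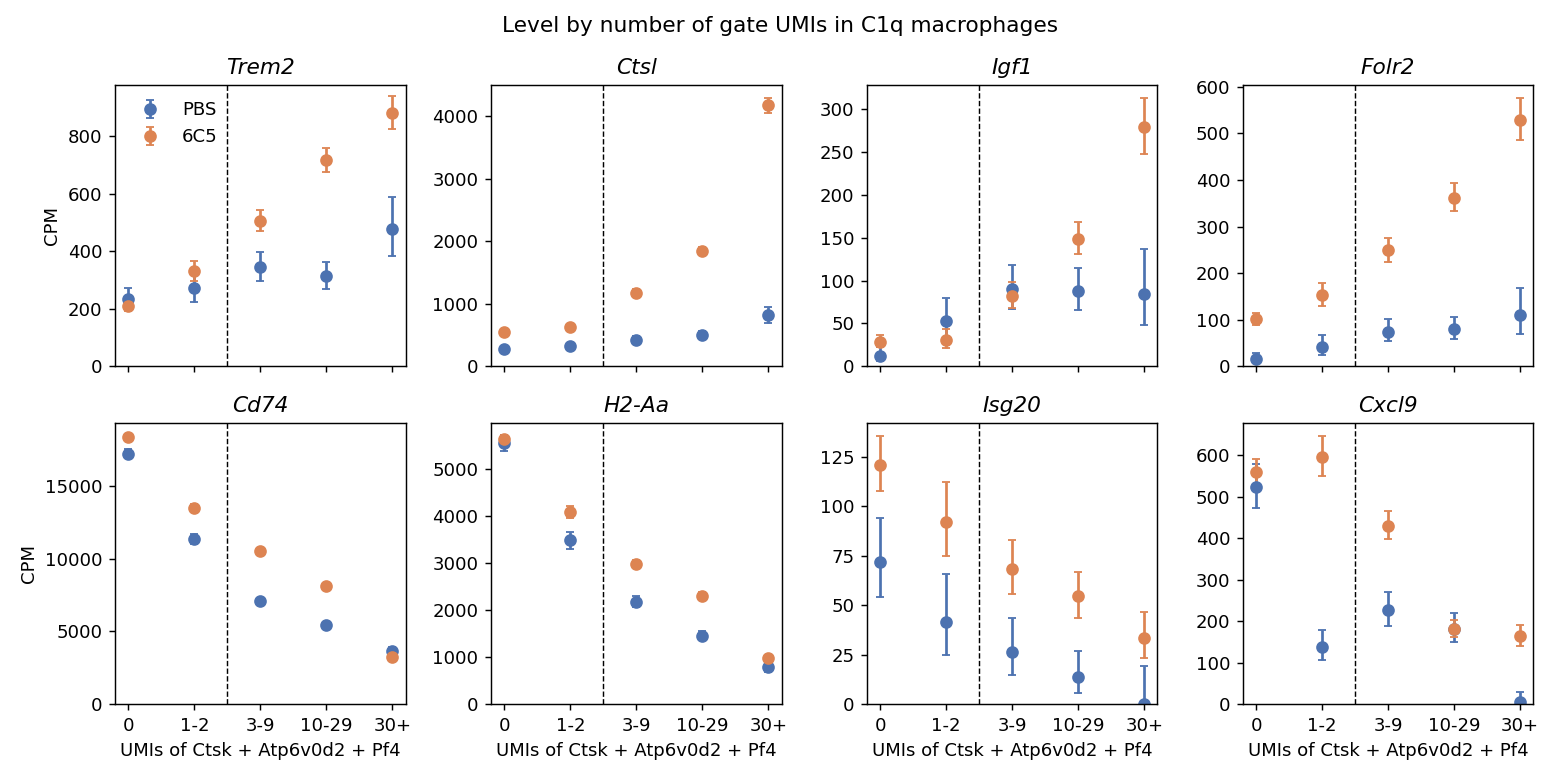
Level (CPM, y axis, with exact Poisson 95% intervals) of 8 genes in C1q macrophages binned by UMIs of Ctsk, Atp6v0d2 and Pf4 (x axis), PBS and 6C5. The dashed line marks the threshold of 3 UMIs, and the highest PBS bin holds 9 cells. Cd74 and H2-Aa are lower and Ctsl is higher in the upper bins in both libraries, and Trem2 in 6C5 goes from 208 to 881 CPM.

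Within the 6C5 members, the 80 cells with a UMI of Ctsk or Atp6v0d2 were compared with the 221 that had Pf4 only. The 2 sets were equal in Pf4, at 1420 and 1424 CPM, and differed in depth, with medians of 15176 and 11960 UMIs, and the part of depth in the split was not tested. Mmp12 stood at 176 CPM (154 to 200) in the cells with Ctsk or Atp6v0d2 and at 7.75 CPM (4.86 to 11.7) in the others, 22.7-fold apart. Fabp4, a fatty acid-binding protein, stood at 227 against 64.8 CPM, and its relative Fabp5 at 2468 against 1075 CPM. Gpnmb, a glycoprotein of lysosome-rich cells, stood at 550 against 176 CPM, and Ctsl at 3754 against 1450 CPM.

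The tetraspanins Cd9 (427 against 181 CPM) and Cd63 (1178 against 597 CPM), Lpl (1468 against 865 CPM) and Trem2 (824 against 615 CPM) were higher too, whereas Apoe was lower (4170 against 5049 CPM). Cxcl9, an interferon-gamma-induced chemokine, was lower at 85.0 against 352 CPM, and Cd74 at 6065 against 8534 CPM. The 80 cells were 26.6% (21.7 to 31.9) of the 6C5 members, and the split used genes of the rule. In PBS 10 members had either gene, and among them Mmp12 stood at 125 CPM (79.0 to 187) against 3.47 CPM (0.945 to 8.88) in the other 85.

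**Figure D4:**
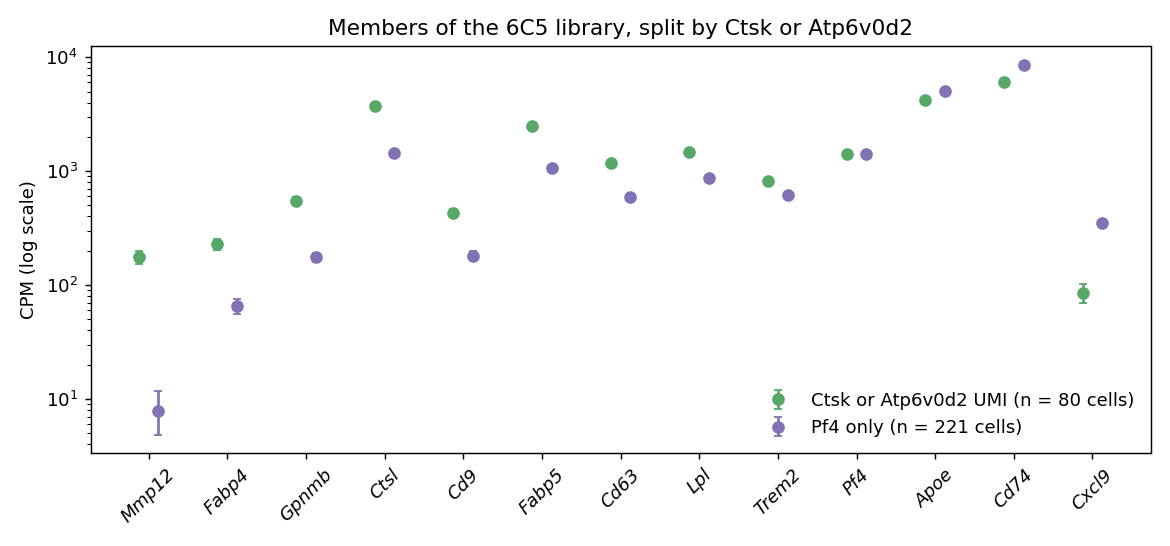
Level (CPM, log scale, y axis, with exact Poisson 95% intervals) of 13 genes (x axis) in the 80 6C5 members with a Ctsk or Atp6v0d2 UMI and the 221 with Pf4 only. Mmp12 lies at 176 and 7.75 CPM, Pf4 at 1420 and 1424 CPM, and Cxcl9 at 85.0 and 352 CPM.

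Between the treatments, Pf4 macrophages of the 6C5 library held more RNA of lipid uptake and export genes, of Ctsl, of several chemokines and of interferon-stimulated genes, and less of Cd81, Igfbp4, the Tmem176 pair and the mannose receptor. Of 7406 genes with at least 50 UMIs over both sets, 238 (3.21%) were at least 2-fold higher and 233 (3.15%) at least 2-fold lower, on the log2(CPM + 1) scale. With edgeR's TMM factors in place of total UMIs these were 357 higher and 145 lower, because the scaling moved the median of all genes from -0.10 to 0.08. The same rule in other C1q macrophages called 153 of 6835 genes higher (2.24%) and 192 lower (2.81%). No difference between the libraries had a replicate check, and the cells' values overlapped for every gene for which the range over cells is given.

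Of 28 measured lipid handling genes, 8 were at least 2-fold higher in 6C5 members and 1 lower, and their median log2 ratio was 0.62 against 0.20 in other C1q macrophages. Gpnmb stood at 53.1 CPM in PBS and 295 CPM in 6C5, 5.56-fold (4.38 to 7.17); in other C1q macrophages its log2 ratio was 0.46 against 2.45 in members. Single members held from 0 over a median of 0 to 1779 CPM in PBS and from 0 over 59.1 to 3807 CPM in 6C5, so that the ranges overlapped. After thinning, 8.42% of PBS and 37.9% of 6C5 members had a Gpnmb UMI (18.9% and 53.8% before). Free RNA, of which droplets without cells hold a share, could supply at most 18.8% of the PBS and 8.27% of the 6C5 UMIs of Gpnmb by the melanoma-gene scaling. T cells held 15.9 CPM of Gpnmb in PBS and 217 CPM in 6C5. The source of this RNA in T cells was not tested, nor was the part of the same source in the members' Gpnmb. Cells that failed the Negr1, Ptprm and Fcrl5 gate alone held 15.6 and 153 CPM, so the difference was not confined to members.

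Cd36, a fatty acid and lipoprotein receptor, stood at 87.5 and 373 CPM, 4.27-fold (3.53 to 5.19). Abca1 was 3.33-fold (2.64 to 4.24) and Nr1h3, the sterol sensor LXR alpha that drives it, 3.07-fold (2.22 to 4.37) higher, and both had larger log2 ratios in other C1q macrophages (2.21 and 2.1 against 1.72 and 1.59). Fabp5 was 2.60-fold and Cd9 2.5-fold higher. Of the lipid markers given for these cells, Trem2 stood at 349 and 682 CPM, 1.95-fold (1.77 to 2.16), with a median over cells of 263 CPM in PBS and 636 CPM in 6C5; in other C1q macrophages its log2 ratio was -0.03. Lpl stood at 761 and 1058 CPM, 1.39-fold (1.30 to 1.49). Neither reached 2-fold.

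Of the 30 measured lysosomal proteases and hydrolases, Ctsl had the highest ratio, at 512 CPM in PBS and 2185 CPM in 6C5, 4.27-fold (3.95 to 4.62), with a log2 ratio of 2.09 in members and 0.98 in other C1q macrophages. Single members held from 0 over a median of 285 to 5926 CPM in PBS and from 0 over 1075 to 38884 CPM in 6C5; the 6C5 cells were higher at the median and the ranges overlapped. Its log2 ratio lay between 1.64 and 2.79 under all gene-level alternatives tried. Ctsl was also higher in 6C5 outside the members. T cells held 83.3 CPM in PBS and 394.5 CPM in 6C5, and the Lyve1 set 630 and 1388 CPM. Cells that failed the Negr1, Ptprm and Fcrl5 gate alone held 236 and 671 CPM. The difference was therefore not confined to members. Subtraction of free RNA was among the alternatives above for members, and the part of free RNA outside the members was not tested. In that list only Ctsl and Gla, the alpha-galactosidase (2.23-fold, 1.79 to 2.79), were at least 2-fold higher, and the list's median log2 ratio was 0.03. The 17 listed subunits of the lysosomal proton pump had 0 genes past 2-fold in either direction and a median of 0.17. Ctsk and Atp6v0d2, genes of the rule with levels given above, were left out of the lysosomal, proton pump and osteoclast lists. Of 9 measured osteoclast-associated genes, 1 passed: the transcription factor Mitf at 65.8 and 151 CPM, 2.30-fold (1.84 to 2.91). Acp5, the tartrate-resistant phosphatase of osteoclasts, was lower at 138 and 82.8 CPM without reaching 2-fold.

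Of 19 measured chemokine genes, 6 were at least 2-fold higher and 1 lower, with a median log2 ratio of 0.60 in members and 0.57 in other C1q macrophages. Ccl8, which attracts monocytes and T cells, stood at 315 and 1764 CPM, 5.60-fold (5.08 to 6.20). Single members held from 0 over a median of 0 to 5865 CPM in PBS and from 0 over 170 to 26964 CPM in 6C5, and after thinning 27.4% of PBS and 48.8% of 6C5 members had at least 1 UMI (38.9% and 57.8% before). Its log2 ratio was larger in other C1q macrophages (2.93 against 2.48), so the difference was not confined to members. Cxcl10, an interferon-induced chemokine, was 3.17-fold (2.81 to 3.58) higher, and the neutrophil attractants Cxcl1 and Cxcl2 3.66-fold and 2.37-fold. Ccl22 rested on 2 PBS UMIs (8.99-fold, 2.37 to 76.0). For Ccl17 no UMI was found among PBS members and 90 among 6C5 members, at least 9.63-fold higher against a floor of 3 UMIs over the PBS members, and 65.6% of those UMIs came from 1 cell. Cxcl14 was lower, at 28.4 and 4.08 CPM.

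Without the Lyve1 gate the log2 ratio of Ccl8 was 1.01 in place of 2.48 and that of Folr2 0.03 in place of 2.14, and the PBS cells of the Lyve1 set held 945 CPM of Ccl8 and 517 CPM of Folr2. Gpnmb (1.62), Cd36 (1.09) and Abca1 (0.74) also had smaller log2 ratios without that gate, and Gas6 a more negative one (-2.76). Without the Negr1 gate the log2 ratios of Gpnmb (3.33) and Spp1 (3.80) were larger. Within the rule Folr2 stood at 81.5 and 364 CPM, 4.46-fold (3.67 to 5.47), with the same log2 ratio in other C1q macrophages (2.14). Of the 12 measured resident and scavenger genes, 2 were at least 2-fold higher, Folr2 among them, and 2 lower, and the median log2 ratio was -0.31. Mrc1 was lower, at 546 and 220 CPM (0.403, 0.365 to 0.445), as was F13a1, a coagulation factor subunit, at 280 and 94.8 CPM (0.339, 0.294 to 0.392); both were lower in other C1q macrophages as well (log2 ratios of -1.5 and -1.32).

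Of the TAM genes, mouse Axl stood at 129 and 98.9 CPM (0.769, 0.642 to 0.924) and Mertk at 71.0 and 54.9 CPM (0.774, 0.607 to 0.993). Neither reached 2-fold; Axl turned direction after thinning and without the Lyve1 gate, where its log2 ratio was 0.38, and Mertk with Ctsk and Atp6v0d2 alone as the gate. Gas6 stood at 40.4 and 19.4 CPM (0.481, 0.337 to 0.692), the apoptotic-cell receptor Scarb1 at 50.1 and 20.4 CPM, and Pros1, the other TAM ligand, at 42.6 and 17.8 CPM. These were the 3 of 15 measured TAM and efferocytosis genes at least 2-fold lower, and Mfge8 was the 1 higher, with 90.4% of its 6C5 UMIs in 1 cell. Gas6 came under 2-fold in 9 of 19 alternatives and turned to 4.45 with Ctsk and Atp6v0d2 alone as the gate, and Pros1 came under 2-fold in 4 and turned to 0.22 with the gate as a share of UMIs. All 3 were also lower in other C1q macrophages, with log2 ratios of -1.28 for Gas6, -1.01 for Scarb1 and -0.85 for Pros1.

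Of 22 measured type I interferon-stimulated genes, 7 were at least 2-fold higher in 6C5 members and 0 lower, and the median log2 ratio was 0.74 in members and 0.77 in other C1q macrophages. The largest ratios were those of Isg20 (17.2 and 54.2 CPM, 3.15-fold, 2.05 to 5.08) and Ifit1, an RNA-binding antiviral protein (34.4 and 106 CPM, 3.08-fold, 2.27 to 4.27). Isg15, a ubiquitin-like modifier, stood at 695 and 1539 CPM. In the interferon-gamma list (median 0.75) 1 gene of 17 passed 2-fold, the guanylate-binding protein Gbp5 (26.2 and 79.7 CPM). For MHC class II the median was 0.14 with 0 of 8 past 2-fold, and MHC class I genes 0.30 with 0 of 13. C3 was 3.78-fold higher (14.2 and 53.7 CPM), and C4b, of the complement list too, was lower (31.4 and 9.36 CPM).

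Inflammatory and repair genes were mixed. Spp1, osteopontin, stood at 355 and 1807 CPM, 5.09-fold (4.64 to 5.59). Single members held from 0 over a median of 0 to 7027 CPM in PBS and from 0 over 385 to 39064 CPM in 6C5. T cells held 290 and 965 CPM of it, other C1q macrophages 499 and 996 CPM, and the Lyve1 set 255 and 1785 CPM. Cells that failed the Negr1, Ptprm and Fcrl5 gate alone held 21.9 and 223 CPM. The Arg1-high set held 2182 CPM in only 7 PBS cells, and 7041 CPM in 6C5. The Spp1 difference was therefore not confined to members. Il1rn, the IL-1 receptor antagonist, stood at 369 and 1134 CPM, Ptgs2, the inducible prostaglandin synthase, at 141 and 441 CPM, and Cd40 at 56.1 and 134 CPM; these were the 3 of 14 measured inflammatory genes at least 2-fold higher, and Il23a was the 1 lower. Of the PBS UMIs of Il23a, 95.5% lay in 1 cell, and without the highest cells its log2 ratio turned from -1.73 to 1.56. Il10, an anti-inflammatory cytokine, stood at 67.3 and 213 CPM, 3.17-fold (2.55 to 3.98), and had a larger log2 ratio in other C1q macrophages (3.27 against 1.65). The collagenase Mmp13 stood at 12.7 and 90.0 CPM, 7.08-fold (4.36 to 12.3).

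Nuclear oxidative phosphorylation genes were slightly lower in 6C5 members, with a median log2 ratio of -0.43 against -0.11 in other C1q macrophages. The median of all genes in members was -0.10, and 0 of the 17 genes passed 2-fold. The mitochondrial share of UMIs had medians of 0.507% in PBS members and 0.282% in 6C5 members, and of 0.563% and 0.285% in other C1q macrophages. Unfolded protein response genes had a median of -0.57 against -0.08, and 1 of 10, Herpud1, was at least 2-fold lower (78.5 and 37.9 CPM). Of 14 genes induced by tissue dissociation, the heat-shock gene Hspa1b (124 and 327 CPM) and Dusp1 (1382 and 2862 CPM) were at least 2-fold higher, with a list median of 0.23; their part in the other results was not tested.

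**Figure D5:**
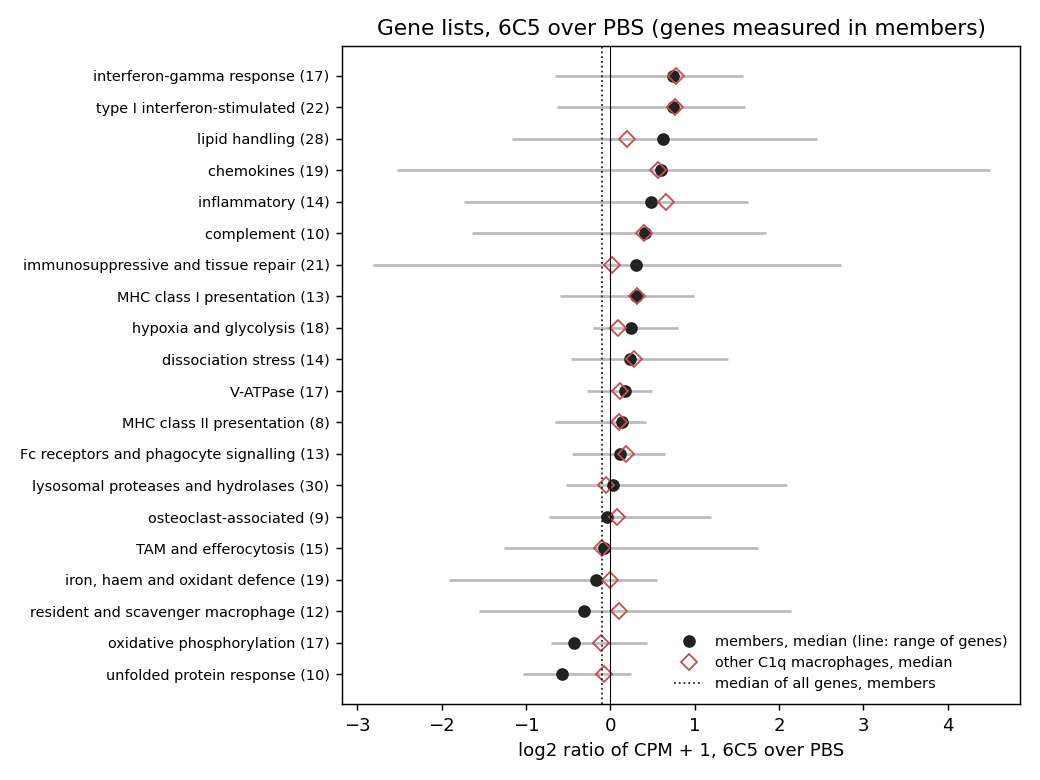
Median log2 ratio of CPM + 1, 6C5 over PBS (x axis), of 20 gene lists (y axis, number of genes measured in brackets) in Pf4 macrophages (filled points, with the range over genes as lines) and in other C1q macrophages (open diamonds). The dotted line is the median of all genes in members (-0.10). The interferon lists lie at 0.74 and 0.75, lipid handling at 0.62 in members and 0.20 in other C1q macrophages, and the unfolded protein response list at -0.57.

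Over all genes with at least 200 UMIs, the highest ratios outside these lists were those of Hspb1, a small heat-shock protein (17.5-fold, 48.5% of its 6C5 UMIs in 1 cell), and of Pdpn, podoplanin, at 15 and 143 CPM, 9.60-fold (6.16 to 15.8). Pdpn had a log2 ratio of 3.18 in members and 1.39 in other C1q macrophages. Il7r, a cytokine receptor, stood at 17.2 and 115 CPM and the membrane protease Adam8 at 74.0 and 388 CPM, 5.25-fold (4.28 to 6.49).

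At the other end, the tetraspanin Cd81 stood at 401 and 48.5 CPM, 0.121 of the PBS level (0.102 to 0.142), and after thinning 61.1% of PBS members and 11.6% of 6C5 members had a UMI of it (76.8% and 20.9% before). Igfbp4 stood at 123 and 17.8 CPM, Tmem176a at 113 and 17.0 CPM, its neighbour Tmem176b at 265 and 55.9 CPM, the microtubule regulator Stmn1 at 198 and 39.8 CPM, the lysosomal enzyme Hgsnat at 123 and 26.6 CPM, the IgG receptor Fcgrt at 220 and 54.7 CPM, and transferrin (Trf) at 258 and 67.7 CPM. Each was also lower in other C1q macrophages, with log2 ratios from -1.24 for Fcgrt to -3.78 for Cd81. Both sets of macrophages therefore shared these differences between the libraries.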

How the data were processed

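Droplet 3' RNA-seq of sorted CD45+ tumour cells was analysed from 2 libraries, 1 PBS and 1 6C5. The authors deposited unfiltered UMI counts for every barcode, and per the file headers Cell Ranger 7.1.0 produced these; version 2.1.1 and mm10 stand in the submitters' processing notes. Members were found by the rule on these counts. Counts were summed over members per library and scaled to 1000000 UMIs (CPM), and ratios were taken as log2(CPM + 1) over genes with at least 50 UMIs. With 1 library per group there was no test: called means at least 2-fold. Intervals are exact (Poisson, Clopper-Pearson or conditional binomial) and cover counting error. Shares of cells with a UMI were compared after thinning to 4000 UMIs, with unthinned values beside them. Free RNA was taken from barcodes with 10 to 100 UMIs and scaled by melanoma genes; it could make up at most 3.47% (PBS) and 3.18% (6C5) of member UMIs. No doublet caller was run; deep cells and cells with markers of other types were left out as alternatives. edgeR 4.0.16 (R 4.3.3) gave TMM factors; Python 3.11.15, numpy 2.4.6, scipy 1.17.1 and pandas 2.3.3 did the rest. The 2-fold calls were checked on simulated sums with known fold changes and no spread between cells. That check did not cover the intervals. Named genes were those of the rule and the TAM system, up to 4 per list with the largest change, and the genes with the largest ratios; Apoe, Fabp4, Fabp5, Cd9, Cd63, Cxcl1, Cxcl2, Cxcl9, Cxcl10, Isg15, Stab1, Cd79b and the marker genes used to check the cells were named in addition after their values had been seen. A few genes are not reported here. The members, lists and tests were chosen with earlier results of these data known.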

Additional observations from a re-analysis of the deposited data

Results flagged for a closer look

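Among the named genes at least 2-fold apart in members, 3 had the opposite direction of 6C5 against PBS in other C1q macrophages, with log2 ratios at least 2 apart. With 1 library per group the difference was not tested. Ccl17 had a log2 ratio of 4.5 in members and -0.88 in other C1q macrophages, and 65.6% of its 6C5 UMIs came from 1 cell. Mfge8, which bridges dying cells to phagocytes, had 1.76 against -1.87, with 90.4% of its 6C5 UMIs in 1 cell. Il23a, an IL-23 subunit, had -1.73 against 0.87, with 95.5% of its PBS UMIs in 1 cell. With the highest cell of each library left out, the members' values were 3.08, -0.56 and 1.56, so that those of Mfge8 and Il23a turned.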

How the results depend on the processing

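The gates, the minimum count, the pseudocount and the scaling by TMM factors each moved counts of genes by over 1.5-fold. Each of 21 alternative settings was run, 17 planned and 4 added after the data had been seen (the Negr1, Lyve1 and Arg1 gates each left off, and the highest cell of each gene left out). No paired analysis was possible because each group was 1 library, and for the same reason no replicate could be left out.

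The ratio of shares, 1.05, was 1.59 with the gate as a share of UMIs, 1.33 after thinning to 4000 UMIs, 1.44 with at least 6 UMIs, 3.07 with Ctsk and Atp6v0d2 alone, 1.30 without barcodes holding markers of other cells and 0.825 without the Lyve1 gate. The 238 genes higher in 6C5 were 716 with no minimum and 115 with at least 200 UMIs. The 233 lower genes were 154 after thinning, 115 with Ctsk and Atp6v0d2 alone, 145 with TMM factors, 1143 with no minimum, 49 with at least 200 UMIs, 143 with a pseudocount of 5 CPM, 505 without the Negr1 gate and 425 without the Lyve1 gate.

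The 51 genes higher in members than in other C1q macrophages were 30 with the gate as a share, 99 with Ctsk and Atp6v0d2 alone, 31 with a lower depth minimum per barcode, 104 with no minimum, 24 with at least 200 UMIs, 23 with a pseudocount of 5, 32 without the Negr1 gate and 178 without the Lyve1 gate. The 37 lower genes were, in the same order of settings, 61, 369, 65 with no minimum, 19, 18, 17 and 58, and 58 after thinning; the lower depth minimum changed it by less than 1.5-fold.

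Of 112 named genes, 59 were at least 2-fold apart, 43 of these kept their direction in all 19 settings that gave gene values and 16 turned in at least 1; 41 fell under 2-fold in at least 1. Most turns came with Ctsk and Atp6v0d2 alone, where 4 PBS cells were left: Atp6v0d2 -0.13, Gas6 4.45, Gla -0.42, C4b 3.31, Isg20 -1.29, Il23a 3.51, Trf 0.42, Herpud1 5.01, Hspa1b -0.52, Stmn1 0.67, Mmp12 -0.30 and Syngr1 -0.70. With the gate as a share of UMIs Pros1 was 0.22 and Retnla 7.20; without the deepest 5% of barcodes Mfge8 was -0.44 and Retnla 0.54; without barcodes holding markers of other cells Il23a was 1.47; without the Lyve1 gate G0s2 was -1.33; without the highest cell Mfge8 was -0.56 and Il23a 1.56. The cause of the other turns was not tested. With TMM factors the medians of the osteoclast, TAM and iron lists turned above 0 (0.14, 0.11 and 0.01).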
